A study of Chlamydomonas reinhardtii with 6 samples.

Results

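The 4 genes described here encode manganese and iron superoxide dismutases of the unicellular green alga Chlamydomonas reinhardtii. They are FSD1 (Cre10.g436050.v5.5), named for its iron cofactor, and MSD1 (Cre02.g096150.v5.5), MSD2 (Cre13.g605150.v5.5) and MSD3 (Cre16.g676150.v5.5), named for manganese. They were chosen by identifier as members of 1 enzyme family, with no value of these libraries in the rule, and all 4 were found among the 17741 gene models of the deposited table. Poly-A RNA was sequenced from 3 cultures with 1000 µM manganese and 3 cultures with 6 µM manganese, the level the labels give as control. All 6 cultures were of strain CC-4532 and carried no further treatment. Each held 1 L of acetate-containing TAP medium, was inoculated from a starter culture, and was kept at 24 °C in continuous light until it reached 3000000 cells per mL. The replicates are therefore separate flasks of 1 strain, and each p-value below rests on how far such flasks differ. In limma's moderated test, the spread of a gene between flasks is pooled in part with that of the other tested genes.

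Superoxide dismutases convert superoxide, a by-product of photosynthetic and respiratory electron transport, into hydrogen peroxide and oxygen, and peroxidases and catalases then remove the peroxide. The iron and manganese enzymes belong to one protein family and differ in the metal at the active site, whereas the copper-zinc enzymes of many plants and animals are unrelated to them. In algae and plants the iron enzyme is typically found in the chloroplast, and manganese enzymes are best known from mitochondria. In Chlamydomonas, MSD3 is known as a manganese enzyme made when cells are starved of iron. The comparison asks whether the RNA of these metalloenzymes differs when manganese is supplied in excess.

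Values are FPKM, fragments scaled to transcript length and library size, so levels of different genes can be compared within a library. The absolute depth is unknown, and the relative number of reads behind 1 FPKM, read from the steps between low values, lay between 0.716 and 1.04 in the 1000 µM libraries and between 1.00 and 1.13 in the 6 µM libraries, with 6 µM replicate 1 set to 1. Because FPKM is a relative measure, a change in RNA per cell cannot be seen. A pair of libraries from different groups, 1000 µM replicate 3 and 6 µM replicate 1, stood apart from the other 4 on the first principal component, which held 57.8% of the variance, and results are given with and without them. No gene of the 12543 tested, 0% of them, passed an adjusted p of 0.05 in limma's moderated test. Before adjustment, 354 genes (2.82%) had a p under 0.05, and 135 of them (1.08% of those tested) were higher at 1000 µM. Where no gene differs, a p under 0.05 is reached on average by a larger part of the genes than these 2.82%.

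All 4 genes were detected in all 6 libraries, and none was listed at 0. Their levels spanned more than 2 orders of magnitude and kept the same order, FSD1 above MSD1 above MSD2 above MSD3, in all 6 libraries. FSD1 was the most abundant, with a mean of 492 FPKM over the 6 libraries, which placed it 210th of 17741 gene models. MSD1 averaged 256 FPKM and stood 336th, and MSD2 averaged 58.3 FPKM and stood 1067th. MSD3 averaged 1.64 FPKM and stood 11272nd. It was the one gene of the 4 with a value under 1 FPKM, in 1 library, 6 µM replicate 3. Neighbours in this order did not overlap: the lowest FSD1 value was 414 FPKM against a highest MSD1 value of 280 FPKM, the lowest MSD1 value was 236 FPKM against a highest MSD2 value of 64.2 FPKM, and the lowest MSD2 value was 50.7 FPKM against a highest MSD3 value of 2.42 FPKM.

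**Figure D1:**
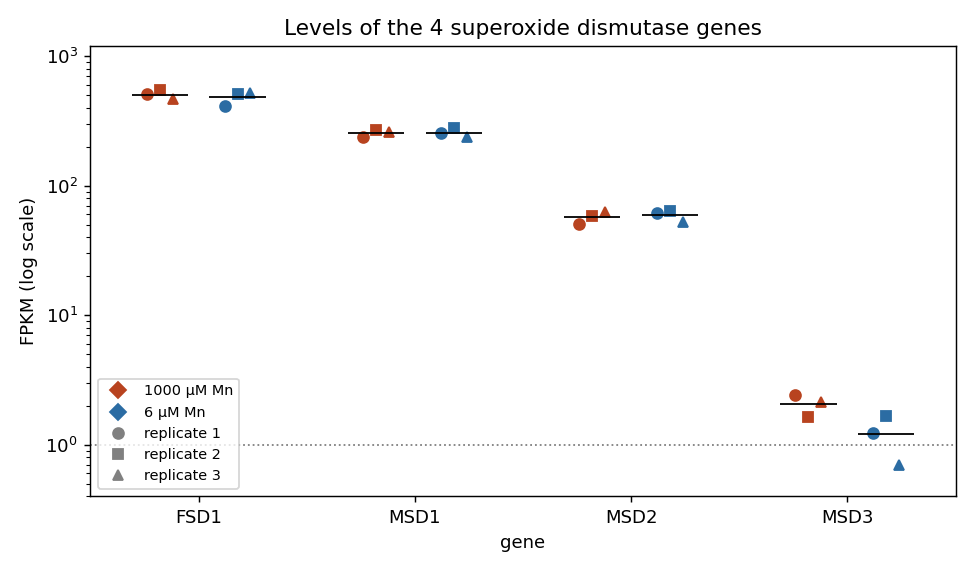
FPKM (log scale) of FSD1, MSD1, MSD2 and MSD3 in each library. Symbols are single cultures (orange, 1000 µM Mn; blue, 6 µM Mn; the shape gives the replicate number), bars are group means of 3, and the dotted line marks 1 FPKM. The 2 groups overlap for every gene, and the 6 µM replicate 3 value of MSD3 is the one point under the line.

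With manganese at 1000 µM, none of the 4 genes passed the adjusted threshold, and for none of them did the groups separate, which they did for 8.04% of the tested genes. The mean at 1000 µM was 1.05 times that at 6 µM for FSD1, 0.993 times for MSD1 and 0.964 times for MSD2. MSD3 had the largest difference of the 4, with a mean 1.72 times as high at 1000 µM as at 6 µM. The differences of log2(FPKM + 1) had a median of 0.035 over the 4 genes and of 0.011 over all tested genes.

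FSD1, the iron enzyme, lies on chromosome 10 from 2474544 to 2475753 in the v5.5 assembly. It had 507, 544 and 464 FPKM in 1000 µM replicates 1, 2 and 3, and 414, 507 and 519 FPKM in 6 µM replicates 1, 2 and 3. The groups overlapped, and the lowest library of each was the one that stood apart on the first component. The means were 505 ± 40.4 FPKM in 1000 µM cultures and 480 ± 57.0 FPKM in 6 µM cultures (SD, n = 3 each). The log2 difference was 0.078 with a 95% interval from -0.22 to 0.37 (limma adjusted p = 1.00), which in FPKM is a fold of 1.06 between 0.859 and 1.30. It was 0.076 under median-of-ratios scaling, -0.059 after quantile normalization and -0.024 without 6 µM replicate 1. Once libraries were brought to a common FPKM total it was -0.010, a scaling that also moved the median difference of all tested genes, to -0.061 against 0.011 as deposited. Without both libraries that stood apart it was 0.036.

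MSD1, whose RNA was the most abundant of MSD1, MSD2 and MSD3, lies on chromosome 2 from 3892614 to 3894846. It had 238, 270 and 258 FPKM in 1000 µM replicates 1, 2 and 3, and 255, 280 and 236 FPKM in 6 µM replicates 1, 2 and 3. The range at 1000 µM lay inside the range at 6 µM. MSD1 averaged 255 ± 15.8 FPKM in 1000 µM cultures and 257 ± 22.2 FPKM in 6 µM cultures (SD, n = 3 each), with coefficients of variation of 6.21% and 8.64%, the smallest of the 4 genes in each group. Its log2 difference was -0.0080 with a 95% interval from -0.27 to 0.25 (limma adjusted p = 1.00), or a fold of FPKM between 0.829 and 1.19. Of the 12543 tested genes, 94.2% had a difference larger in size. Without both libraries that stood apart the difference was -0.020. It was -0.096 at a common FPKM total, -0.106 after quantile normalization and -0.010 under median-of-ratios scaling.

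MSD2 lies on chromosome 13 from 4797502 to 4800759. It had 50.7, 58.8 and 62.2 FPKM in 1000 µM replicates 1, 2 and 3, and 61.9, 64.2 and 52.1 FPKM in 6 µM replicates 1, 2 and 3. The groups overlapped over most of their range, with the lowest value in 1000 µM replicate 1 and the highest in 6 µM replicate 2. The means were 57.2 ± 5.89 FPKM in 1000 µM cultures and 59.4 ± 6.43 FPKM in 6 µM cultures (SD, n = 3 each). The log2 difference was -0.052 with a 95% interval from -0.34 to 0.24 (limma adjusted p = 1.00), or a fold of FPKM between 0.786 and 1.18. It was -0.081 without both libraries that stood apart. For MSD1 and MSD2 the sign changed when 1000 µM replicate 1 or 6 µM replicate 2 was left out, to 0.041 and 0.055 for MSD1 and to 0.031 and 0.0059 for MSD2.

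The intervals of these 3 genes were about as wide as those of other genes. The half-widths on the log2 scale were 0.30, 0.26 and 0.29 for FSD1, MSD1 and MSD2, beside a median of 0.26 over all tested genes.

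MSD3 lies on chromosome 16 from 6065926 to 6069339. It had 2.42, 1.65 and 2.13 FPKM in 1000 µM replicates 1, 2 and 3, and 1.24, 1.67 and 0.703 FPKM in 6 µM replicates 1, 2 and 3. The overlap of the groups rested on the replicates numbered 2, whose values of 1.65 FPKM at 1000 µM and 1.67 FPKM at 6 µM were nearly equal, while the other 2 libraries at 1000 µM lay above all 6 µM libraries. MSD3 averaged 2.07 ± 0.391 FPKM in 1000 µM cultures and 1.20 ± 0.485 FPKM in 6 µM cultures (SD, n = 3 each). Its coefficients of variation, 18.9% and 40.3%, were the largest of the 4 genes in both groups.

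The log2 difference of MSD3 was 0.49, with a standard error of 0.17 and a 95% interval from 0.11 to 0.87, unadjusted for the number of genes. In FPKM this is a fold of 1.76 between 1.15 and 2.55. The unadjusted p was 0.0173, under 0.05 for MSD3 but not for the other 3 genes, and 1.08% of all tested genes were likewise under 0.05 and higher. With Benjamini-Hochberg adjustment over all 12543 genes the limma adjusted p was 1.00, so the difference did not pass the test. Ranked by the difference towards 1000 µM, MSD3 stood 31st, and 0.662% of the tested genes had a difference larger in size. The difference was 0.48 within the pair of libraries that stood apart, a single library of each group, and 0.50 among the other 4. Both values are parts of the difference of 0.49 and no separate support for it.

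The direction of MSD3 was the same in all 15 alternatives that gave a value, with differences from 0.19 at a pseudocount of 5 to 0.79 at a pseudocount of 0.1, and limma adjusted p from 0.795 to 1.00. Its unadjusted p stayed under 0.05 in 13 of them and was above it without 1000 µM replicate 1 (difference 0.41) and without 6 µM replicate 3 (difference 0.32). The alternatives reuse the same libraries, so these counts are not independent evidence. The lowest value, 0.703 FPKM, came from 6 µM replicate 3, which had the largest relative number of reads per FPKM, 1.13. Of the 1000 µM libraries, replicate 2 had the lowest MSD3 value and the lowest relative number of reads, 0.716. How many reads lie behind these values is unknown, and the part of counting error in the difference was not tested.

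**Figure D2:**
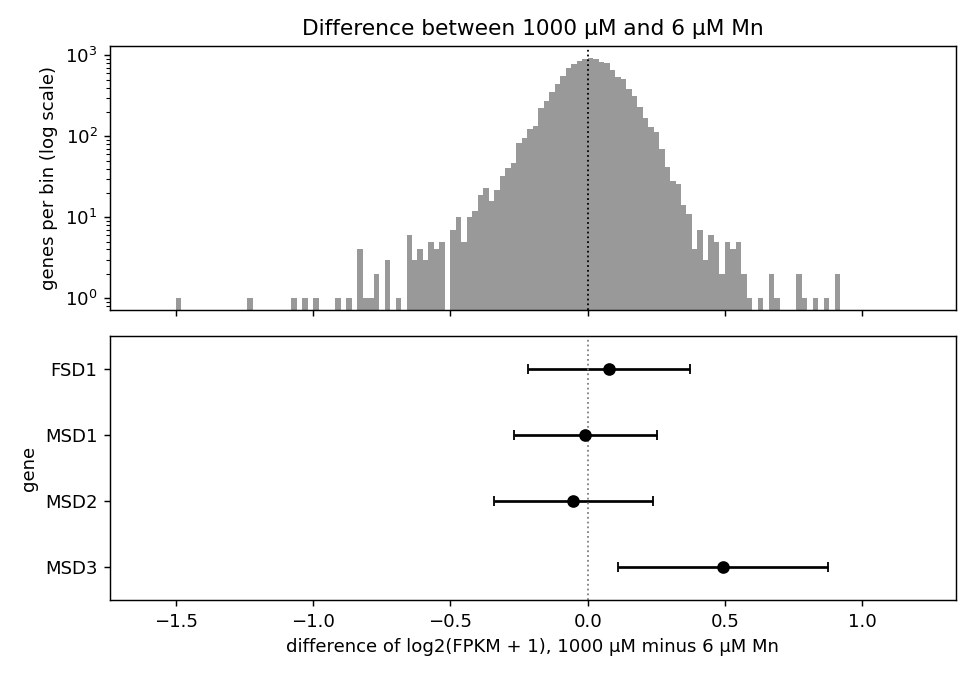
Upper panel, number of tested genes (log scale) by difference of log2(FPKM + 1), 1000 µM minus 6 µM Mn. Lower panel, the difference of each superoxide dismutase gene with its 95% interval from limma, n = 3 cultures per group. The intervals of FSD1, MSD1 and MSD2 include 0, and that of MSD3 runs from 0.11 to 0.87 before adjustment for 12543 genes.

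**Figure D3:**
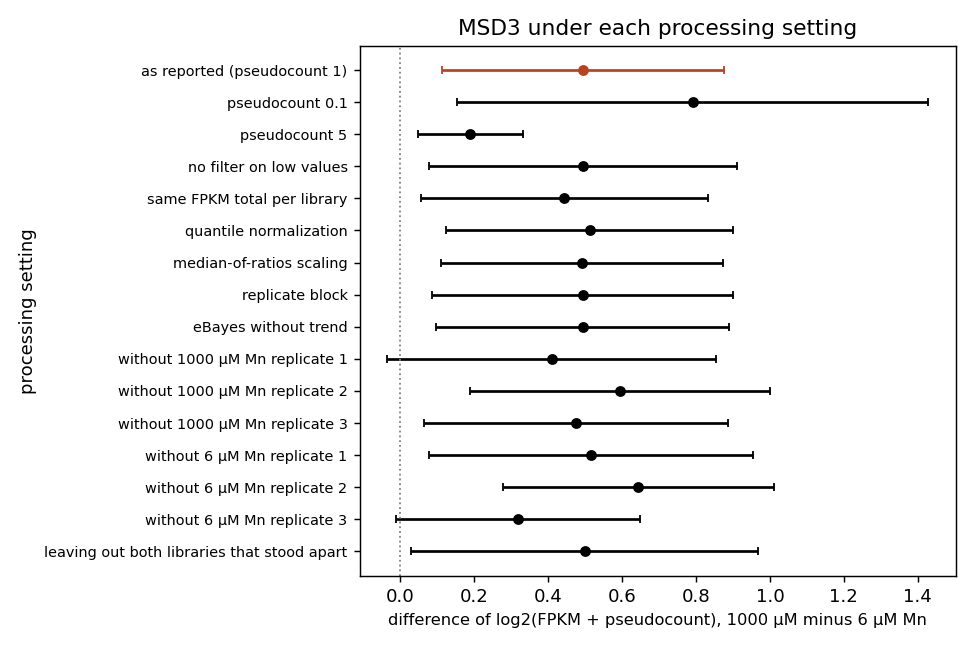
Difference of log2(FPKM + pseudocount) for MSD3, 1000 µM minus 6 µM Mn, with its 95% interval, as reported (orange) and under each alternative (black). All points lie above 0, and the intervals without 1000 µM replicate 1 and without 6 µM replicate 3 include 0.

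The share of each gene was taken as its part of the summed FPKM of the 4 genes in the same library, which leaves out any scaling between libraries. FSD1 held 63.5%, 62.3% and 59.0% of the sum in 1000 µM replicates 1, 2 and 3, and 56.5%, 59.4% and 64.3% in 6 µM replicates 1, 2 and 3. The iron form thus held the larger part of this RNA in all 6 libraries. MSD1 held 31.2% ± 1.52 at 1000 µM and 32.3% ± 2.85 at 6 µM (SD, n = 3 each). MSD2 held 7.00% ± 0.814 at 1000 µM and 7.48% ± 0.999 at 6 µM (SD, n = 3 each). Other genes of the family, if any, are not part of these sums.

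MSD3 held 0.304%, 0.189% and 0.271% in 1000 µM replicates 1, 2 and 3, and 0.169%, 0.196% and 0.0870% in 6 µM replicates 1, 2 and 3. Its share overlapped between the groups only through replicate 2 of each, as its FPKM did. The mean share of MSD3 differed by 0.104 percentage points between 1000 µM and 6 µM, with an exact two-sided permutation p of 0.2. For FSD1, MSD1 and MSD2 the differences were 1.51, -1.13 and -0.48 percentage points, with exact permutation p of 0.7, 0.6 and 0.6. After adjustment over the 4 shares p was 0.7 for each, and the smallest p that 3 against 3 cultures can give is 0.1. Without 6 µM replicate 1 the differences of FSD1, MSD1 and MSD2 changed sign, to -0.252, 0.134 and 0.0043 percentage points. Without both libraries that stood apart the differences were 1.04 for FSD1, -0.693 for MSD1, -0.453 for MSD2 and 0.105 percentage points for MSD3.

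**Figure D4:**
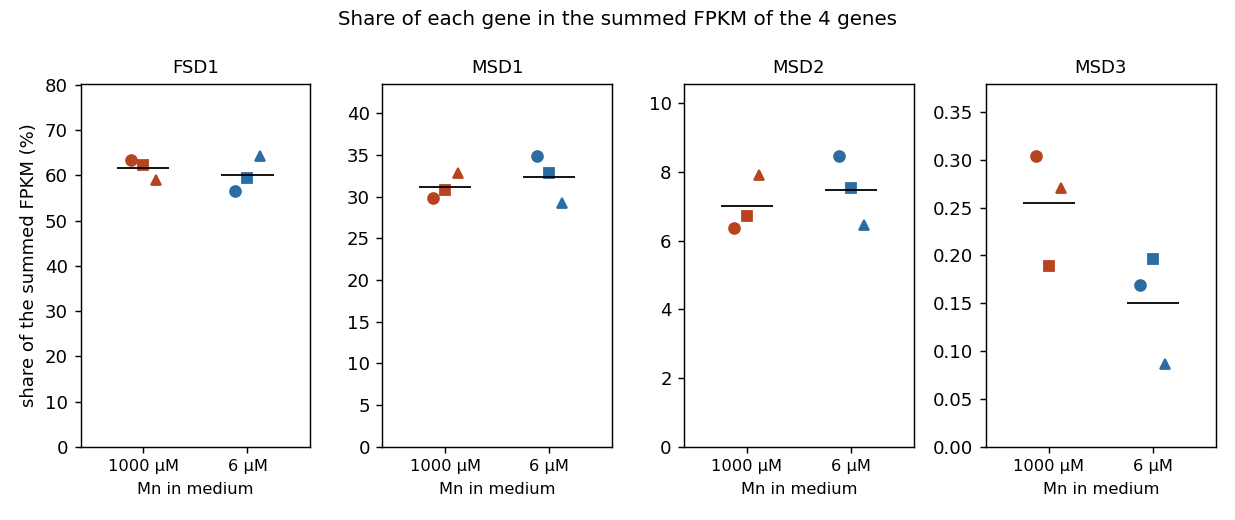
Share of each gene in the summed FPKM of the 4 genes (percent, each panel with its own axis from 0), by manganese in the medium. Symbols are single cultures (orange, 1000 µM Mn; blue, 6 µM Mn; circle, square and triangle for replicates 1, 2 and 3) and bars are means of 3. FSD1 lies between 56.5% and 64.3% in all 6 libraries, and MSD3 stays at or below 0.304%.

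FSD1 and MSD1, the 2 abundant forms, stood in a ratio of FPKM of 1.98 ± 0.168 at 1000 µM and 1.88 ± 0.294 at 6 µM (SD, n = 3 each). The ratio of MSD1 to MSD2 was 4.48 ± 0.290 at 1000 µM and 4.34 ± 0.203 at 6 µM (SD, n = 3 each). The groups overlapped for both ratios, with exact permutation p of 0.8 and 0.5. The 3 manganese forms together summed to 315 ± 20.4 FPKM in 1000 µM cultures and 318 ± 28.7 FPKM in 6 µM cultures (SD, n = 3 each), with an exact permutation p of 1.

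All 4 genes together summed to 798, 875 and 786 FPKM in 1000 µM replicates 1, 2 and 3, and to 733, 853 and 807 FPKM in 6 µM replicates 1, 2 and 3. The groups overlapped, and the difference of means was 22.2 FPKM with an exact permutation p of 0.7, and 6.61 FPKM without both libraries that stood apart. The FPKM sums over all genes ran from 689724 to 767912 at 1000 µM and from 629620 to 719323 at 6 µM. As a part of each library's sum, the 4 genes held 0.114% in all 3 libraries at 1000 µM, and 0.116%, 0.119% and 0.118% in 6 µM replicates 1, 2 and 3. On this scale the groups did not overlap, and the exact permutation p of 0.1 is the smallest that the design allows. That scale moves the median over all tested genes, as given for FSD1. How many of the tested genes separate on it was not counted, and nothing particular to these 4 genes is read from the separation. The difference of the summed level was -26.6 FPKM at a common FPKM total, 21.1 FPKM under median-of-ratios scaling and -43.8 FPKM after quantile normalization, with exact permutation p of 0.1, 0.8 and 0.5.

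Across the 6 libraries, MSD1 and MSD2 followed each other most closely of the 6 pairs. Both were lowest in 1000 µM replicate 1 and 6 µM replicate 3, and both were highest in 6 µM replicate 2. Pearson's r of their log2(FPKM + 1) values was 0.86 (exact permutation p = 0.0542, adjusted over 6 pairs 0.325) and Spearman's rho was 0.77 (exact permutation p = 0.103, adjusted 0.617), n = 6. Without the 2 libraries farthest from the median of MSD1, r was 0.73. The other 5 pairs had r between -0.43 and 0.24, with adjusted exact permutation p of 0.963 each, and rho between -0.54 and 0.26, with adjusted exact permutation p of at least 0.892. No relation passed the adjustment.

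The genes most like each member over the 6 libraries, by Pearson's r of log2(FPKM + 1), were looked up among all 12543 tested genes, so a high r is fixed by the choice and is given as a description. For FSD1 they were Cre02.g114050.v5.5 (r = 0.994) and Cre02.g114550.v5.5 (r = 0.990). Cre17.g725350.v5.5 (r = 0.994) and Cre17.g741000.v5.5 (r = 0.973) were nearest to MSD1. For MSD2 they were Cre14.g620400.v5.5 and Cre13.g562475.v5.5, both at r = 0.993. Nearest to MSD3 were Cre16.g652450.v5.5 (r = 0.988), which averaged 10.1 ± 0.335 FPKM in 1000 µM cultures and 8.78 ± 0.654 FPKM in 6 µM cultures, and Cre01.g049950.v5.5 (r = 0.981), which averaged 59.7 ± 4.76 FPKM in 1000 µM cultures and 46.3 ± 6.68 FPKM in 6 µM cultures (SD, n = 3 each). Their log2 differences were 0.19 and 0.37, and neither passed (limma adjusted p = 1.00 for both).

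The 4 genes lie on different chromosomes, each close to its neighbours. The gaps to the nearest gene models were 91 and 3 bp for FSD1, 108 and 248 bp for MSD1, 48 and 6 bp for MSD2, and 51 and 40 bp for MSD3. Of the 8 neighbours, 6 reached the level for testing, with log2 differences from -0.19 to 0.25, and none passed the adjusted threshold in limma. MSD3, the lowest of the 4 genes, is 51 bp from Cre16.g676200.v5.5, which averaged 10.3 ± 0.641 FPKM in 1000 µM cultures and 11.2 ± 1.12 FPKM in 6 µM cultures (SD, n = 3 each). The log2 difference of that neighbour was -0.098 with a 95% interval from -0.34 to 0.14 (limma adjusted p = 1.00). On its other side Cre16.g676100.v5.5 averaged 0.400 ± 0.0406 FPKM in 1000 µM cultures and 0.357 ± 0.0814 FPKM in 6 µM cultures (SD, n = 3 each) and was below the level for testing. Whether reads of a neighbour entered the MSD3 values was not tested.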

How the data were processed

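The values analysed are FPKM, as the authors deposited them, with 1 column per library. Per the submitters' processing notes the tools were CASAVA, STAR and Cuffdiff 2.2.1. Settings, genome build and strandedness were not given in the sources used here. Columns were assigned to samples by manganese level and replicate number in the titles, and 0 per-sample columns were left unused. The table holds no gene names. Locus tags linked the identifiers to RefSeq genes of assembly Chlamydomonas_reinhardtii_v5.5 (17738 of 17741 matched, all 4 members among them), which gave positions and no symbols, so the identity of the 4 genes rests on their identifiers.

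Values were transformed to log2(FPKM + 1), which understates the fold of low genes, and the test covered genes averaging 1 FPKM or more across the 6 libraries. Differences (1000 µM minus 6 µM) were tested with a two-sided moderated test, from limma 3.58.1 (eBayes with trend) and R 4.3.3; p-values were adjusted by Benjamini-Hochberg over 12543 genes, called at 0.05, and 95% intervals come from the moderated standard errors. Folds of FPKM with bounds were converted from the log2 difference and its interval, with the 6 µM level held at its mean on the log scale. These bounds therefore leave out the error of that level in the conversion. Shares and sums were compared by exact permutation over libraries. In 20 simulated runs of this test on 12543 genes with 200 changed genes, 4.06% of calls were false. The simulated noise was independent between genes and libraries, whereas the real libraries shared a strong first component. Changed genes were drawn from levels above that of MSD3. The simulated share therefore need not hold for these libraries or for MSD3. Figures were drawn with matplotlib 3.10.9.

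The members and lists were chosen with earlier results of these data known, although the rule for the members uses identifiers and no values. Named genes were the members, the 2 tested genes most correlated with each, and the nearest gene model on each side. Lists of related enzymes defined by protein motifs, and protein comparisons, were planned but not run, because no protein sequences were used here. Replicate numbers were not used as pairs, because the labels do not say that they mark a shared batch. Same-numbered libraries deviated from their group means with correlations of -0.40, 0.51 and -0.50. Alternatives covered the pseudocount, the filter, the scaling, a replicate block, the variance trend and the omission of each library. Leaving out both libraries that stood apart was added after seeing the data.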

Additional observations from a re-analysis of the deposited data

How the results depend on the processing

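No alternative moved any of the 4 genes past the adjusted threshold. MSD3 kept its direction in all 15 alternatives (0.32 to 0.64 when 1 library was left out); at a minimum mean of 5 FPKM it was not tested. FSD1 reversed to -0.010 with the same FPKM total per library, where the median of all tested genes also fell to -0.061, and to -0.059 after quantile normalization, was 0.076 under median-of-ratios scaling, and ran from -0.024 to 0.14 when 1 library was left out. When 1 library was left out, MSD1 ran from -0.068 to 0.055 and MSD2 from -0.14 to 0.031. With the same FPKM total per library MSD1 was -0.096 and MSD2 -0.139. After quantile normalization they were -0.106 and -0.124, and under median-of-ratios scaling -0.010 and -0.054. With 1 library left out, the difference in share ran from -0.252 to 3.60 percentage points for FSD1 and from -2.68 to 0.134 for MSD1. It ran from -0.994 to 0.0043 for MSD2 and from 0.0719 to 0.137 for MSD3. The difference of the summed level ran from -10.2 to 49.7 FPKM over the same omissions. It was negative without 1000 µM replicate 2 (-5.25) and without 6 µM replicate 1. With the same FPKM total it was -26.6 FPKM, after quantile normalization -43.8 FPKM and under median-of-ratios scaling 21.1 FPKM. The median of all tested genes did not fall below 0 in the other 2 scalings, at 0.0056 after quantile normalization and 0.0089 under median-of-ratios scaling. The cause of these sign changes was not tested. The count of 0 genes past the adjusted threshold in limma became 2 with the same FPKM total, 3 without both libraries that stood apart and 0 to 2 with 1 library left out (2 without 6 µM replicate 1, 1 without 1000 µM replicate 3), all lower at 1000 µM. Before adjustment, the 354 of 12543 genes under 0.05 were 618 of 16772 when low genes were kept, 172 of 7149 when a mean of 5 FPKM was required, 530 of 12545 with the same FPKM total and 638 of 12569 without both libraries. With a replicate block the log2 differences were unchanged by construction (0.49 for MSD3, limma adjusted p = 1.00), the counts were 0 and 306, and no call changed. Shares of all motif-bearing genes and the motif lists were not run. The unknown depth limits statements on MSD3 most, the one gene of the 4 near 1 FPKM.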
